A study of Homo sapiens with 2 samples.

Results

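The 10 nuclear genes examined here serve to copy and transcribe mitochondrial DNA: POLRMT, TFAM, TFB2M, TEFM and MTERF1, which act in transcription, and POLG, POLG2, TWNK, SSBP1 and MGME1, which act in replication. They were chosen by name for their known function, not for a measured value, and all 10 of 10 were found among the 59026 genes that could be summed from the deposited tables. Together they had 89 of the 206696 listed transcripts, between 1 (TFB2M) and 24 (POLG) per gene. RNA came from HEK293 Flp-In T-Rex cells, an established human embryonic kidney line equipped with a recombination site for transgenes and with the tetracycline repressor. The cells were grown in high-glucose medium with foetal calf serum and received no treatment according to the labels. Total RNA was depleted of rRNA and sequenced in 2 libraries, replicate 1 and replicate 2, which form the only group, and the larger study is concerned with METTL8, a methyltransferase of mitochondrial tRNAs. The labels did not state whether the libraries came from separate cultures, so every SD given here may be technical.

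Mitochondria keep a small circular genome that encodes core subunits of the respiratory chain together with the rRNAs and tRNAs needed to translate them, whereas every protein that maintains, copies and reads this genome is made from nuclear genes and imported. Transcription is carried out by the single-subunit RNA polymerase POLRMT, which is placed on the promoters by TFAM and helped to open them by TFB2M. TEFM then makes the polymerase processive, and MTERF1 binds downstream of the rRNA genes, where it stops transcription. Replication uses the catalytic subunit POLG and its accessory subunit POLG2, the helicase TWNK (Twinkle) and the single-stranded DNA-binding protein SSBP1, while the nuclease MGME1 trims the DNA ends that are left. POLRMT also makes the primers from which DNA synthesis starts, and TFAM packages the genome into nucleoids.

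With 2 libraries of 1 group no test between conditions was possible, and the smallest two-sided sign-flip p that the design allows is 0.5. Values are therefore given for each library or as mean ± SD (n = 2). The libraries held 25158962 and 27143860 estimated counts. Of the HEK293 markers 4 of 4 (PAX2, NEFL, NEFM, INA) had 1 normalised count or more in both libraries, as did 26370 of the 59026 genes. They summed to 2271 and 2311 normalised counts, most of them from NEFL (1868 and 1848). INA had 356 and 394, PAX2 33.9 and 50.1, and NEFM 14.5 and 18.7. The 5 markers of mature kidney tubule summed to 9.52 and 6.24 normalised counts, with UMOD and AQP2 at 0 in both. Of the blood markers PTPRC and CD3E were at 0, but HBB had 179 and 182 normalised counts, and of the fibroblast markers DCN was at 0 while COL1A1 had 156 and 291. HBB and COL1A1 were thus above PAX2 and NEFM in both libraries.

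Several of the genes have annotated transcripts that encode different proteins, and the sequences at which these differ are shown first. Reads across these sequences were not counted, and the shares given below are estimates per annotated transcript. All were read from the genome build GRCh38 along the transcript, 5′ to 3′, at exons of GENCODE v44. In the junction sequences lower case is the upstream exon and capitals are the downstream exon. TFAM (ENSG00000108064, chr10:58385345-58399220, plus strand) has a canonical transcript of 7 exons, TFAM-204, and a shorter form, TFAM-201, that skips exon 5 (chr10:58390765-58390860). The skipped exon is 96 nt long, or 32 codons, so the reading frame is kept and the annotated protein has 214 instead of 246 residues.

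TFAM-204, exon 5 (all in capitals, the part that TFAM-201 lacks): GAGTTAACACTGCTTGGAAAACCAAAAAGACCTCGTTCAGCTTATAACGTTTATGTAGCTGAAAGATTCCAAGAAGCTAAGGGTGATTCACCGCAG

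TFAM-204, exon 4 to exon 5: atgacaaaaaaaaaaGAGTTAACACTGCTT

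TFAM-201, exon 4 to exon 6: atgacaaaaaaaaaaGAAAAGCTGAAGACT

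MGME1 (ENSG00000125871, chr20:17969018-17991122, plus strand) has a canonical transcript of 5 exons, MGME1-203, while MGME1-201 joins exon 2 directly to exon 5. TWNK (ENSG00000107815, chr10:100987367-100994403, plus strand) uses a splice site in exon 4 that decides between Twinkle and the shorter protein Twinky. In TWNK-202, which encodes Twinky, exon 4 runs 44 nt further, to position 100991054, and the same extended exon is part of TWNK-209, a transcript annotated as a target of nonsense-mediated decay. TEFM (ENSG00000172171, chr17:30897336-30906238, minus strand) has a decay-annotated transcript, TEFM-201, in which exon 3 starts 41 nt later than in the canonical TEFM-205.

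MGME1-203, exon 2 to exon 3: aagaatacacttcaaACGTCTTTTTACAAG

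MGME1-201, exon 2 to exon 5: aagaatacacttcaaGTTCAATGTGGCTTA

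TWNK-201, exon 4 to exon 5: tttggctcagccaaaGCAAGCCAGGAAGCA

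TWNK-202 and TWNK-209, extended exon 4 to exon 5: tggaaaatagagtggGCAAGCCAGGAAGCA

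TEFM-205, exon 2 to exon 3: agagaaagacttaagGCAGTTAATAGTATC

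TEFM-201, exon 2 to shortened exon 3: agagaaagacttaagAATTGCCTGGGCTCA

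To compare levels between genes, the estimated count of each transcript was divided by its GENCODE v44 length, scaled to 1000000 per library over all transcripts and summed per gene. On this per-length scale the 10 genes summed to 360 in replicate 1 and 302 in replicate 2 (331 ± 41.4). Their median was 19.2, against 1.87 for the 26370 genes detected in both libraries with 1 normalised count or more. These 26370 genes were not limited to protein-coding genes. Of them 12660 had a mean of 100 normalised counts or more, as did all 10 genes. The median and the ranks given below were not taken within a set matched for depth or gene type. Of the 10 genes SSBP1 was the most abundant and alone held 45.7% ± 4.02 of the per-length sum. It was followed by TFAM, POLG, POLRMT, MGME1, TWNK, POLG2, TEFM, TFB2M and MTERF1. Among the 45 pairs of genes, 44 had the same order in both libraries and 43 also differed by more than the sum of their SDs. The exceptions were POLRMT and MGME1, whose order changed between the libraries (per-length ratios of 0.954 and 1.42), and POLG2 and TEFM, which differed by less than their spread (ratios of 1.03 and 1.07).

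**Figure D1:**
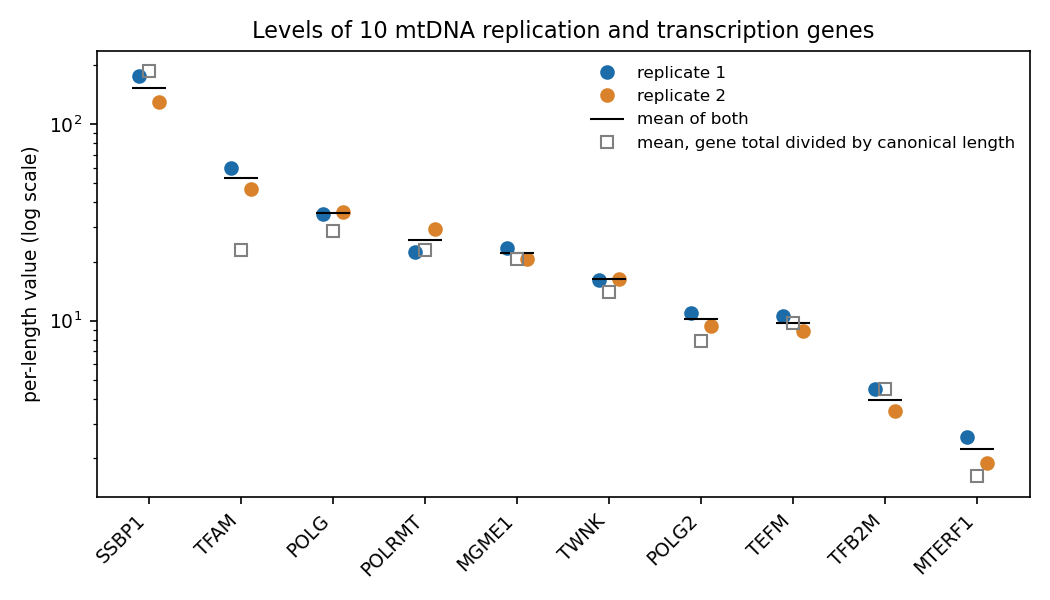
Per-length values (counts divided by transcript length, scaled to 1000000 per library, log axis) of the 10 genes in order of their mean. Circles are the libraries, bars the mean of both, and open squares the mean when the gene total is divided by the length of the canonical transcript. SSBP1 lies at 175 and 129 and MTERF1 at 2.57 and 1.89, and the open square of TFAM, at 22.9, falls far below its circles.

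Of the transcription genes, POLRMT (ENSG00000099821, chr19:617221-633537, minus strand) had per-length values of 22.4 in replicate 1 and 29.1 in replicate 2 (25.8 ± 4.72), higher than 87.9% of the 26370 genes. TFAM, which binds DNA both as transcription factor and as packaging protein, had values of 59.9 and 47.0 (53.4 ± 9.13). The per-length ratio of TFAM to POLRMT was thus 2.67 in replicate 1 and 1.61 in replicate 2. This ratio rested on how the counts of TFAM were divided among its transcripts: when gene totals were divided by the length of the canonical transcript, which is 5025 nt for TFAM, the ratio was 1.39 and 0.725, and the libraries no longer gave the same order.

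TFB2M, TEFM and MTERF1 each had a lower per-length value than POLRMT in both libraries. TFB2M (ENSG00000162851, chr1:246540561-246566261, minus strand), the factor that melts the promoter, had per-length values of 4.47 and 3.48 (3.97 ± 0.704), so that POLRMT exceeded it 5.02-fold and 8.38-fold. The elongation factor TEFM had values of 10.6 and 8.82 (9.72 ± 1.27), and POLRMT exceeded it 2.11-fold and 3.30-fold. On the log2 scale, the ratio of the mean values of POLRMT and TEFM was 1.41, and 2.36 when only protein-coding transcripts were summed. MTERF1 (ENSG00000127989, chr7:91692008-91880702, minus strand), the termination factor, was the lowest of the 10 with per-length values of 2.57 and 1.89 (2.23 ± 0.485). It was higher than 51.8% of the 26370 genes, which include genes of any type and of lower depth. Neither library had more than 161 estimated counts for MTERF1, so its transcript shares below carry wide counting intervals.

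In the replication group SSBP1 (ENSG00000106028, chr7:141738334-141787922, plus strand), which coats the displaced single strand, had per-length values of 175 and 129 (152 ± 32.2), higher than 98.4% of the 26370 genes. SSBP1 exceeded the helicase TWNK, with which it works at the fork, 10.8-fold in replicate 1 and 7.91-fold in replicate 2. When gene totals were divided by the length of the canonical transcript, this ratio was 15.4 and 11.2. TWNK was the steadiest of the 10 genes on the per-length scale, at 16.2 and 16.3 (16.3 ± 0.109). POLG (ENSG00000140521, chr15:89305198-89334861, minus strand), the catalytic subunit of the DNA polymerase, had values of 34.8 and 35.8 (35.3 ± 0.760) and exceeded TWNK 2.15-fold and 2.19-fold. POLG2 (ENSG00000256525, chr17:64477785-64497054, minus strand), which forms the dimeric accessory subunit, had values of 10.99 and 9.42 (10.2 ± 1.11). POLG transcripts were hence 3.16 and 3.80 times as abundant per length as those of its partner. This ratio was larger with protein-coding transcripts only, at 2.64 instead of 1.79 on the log2 scale of the mean values. MGME1 had values of 23.5 and 20.6 (22.04 ± 2.10).

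For the comparison of the libraries the authors' normalised counts were summed per gene, and the difference was taken as log2 of replicate 2 over replicate 1 after adding 1. POLRMT had 1744 and 2449 normalised counts in replicates 1 and 2, a difference of 0.49 and the largest increase among the 10. POLG had 2971 and 3246 (0.13) and TWNK 1227 and 1245 (0.02). The other 7 genes were all higher in replicate 1. TFAM had 3225 and 2364 normalised counts (-0.45), SSBP1 3532 and 2604 (-0.44), TFB2M 221 and 169 (-0.39) and MGME1 1251 and 974 (-0.36). MTERF1 had 170 and 139 (-0.29), TEFM 338 and 277 (-0.28) and POLG2 333 and 275 (-0.27). None of the 10 genes differed by more than 1.5-fold. Of the 26370 genes 24.4% did, and 7.59% of the 12660 genes whose mean reached 100 normalised counts, as that of all 10 does. With so few genes, 0 of 10 is close to the latter share and does not set them apart.

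The direction of these differences went with base composition. POLRMT, POLG and TWNK, which were higher in replicate 2, have canonical transcripts with 66.1%, 59.4% and 53.8% GC. The 7 genes higher in replicate 1 range from 35.98% (TFAM) to 46.5% (POLG2). The same gradient ran through the whole table. A GC content was known for 12113 of the 12660 genes, which were split into 4 equal bins. The median log2 difference was -0.38 in the bin of lowest GC content, -0.21 and 0.01 in the following bins and 0.27 in the bin of highest GC content. Across these genes, which are not independent replicates, Pearson's r between GC content and difference was 0.761 and Spearman's rho 0.818. After the median of its own bin had been subtracted, each of the 10 genes lay between -0.15 (MGME1) and 0.22 (POLRMT). Whether GC content accounts for the differences between the libraries was not tested.

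**Figure D2:**
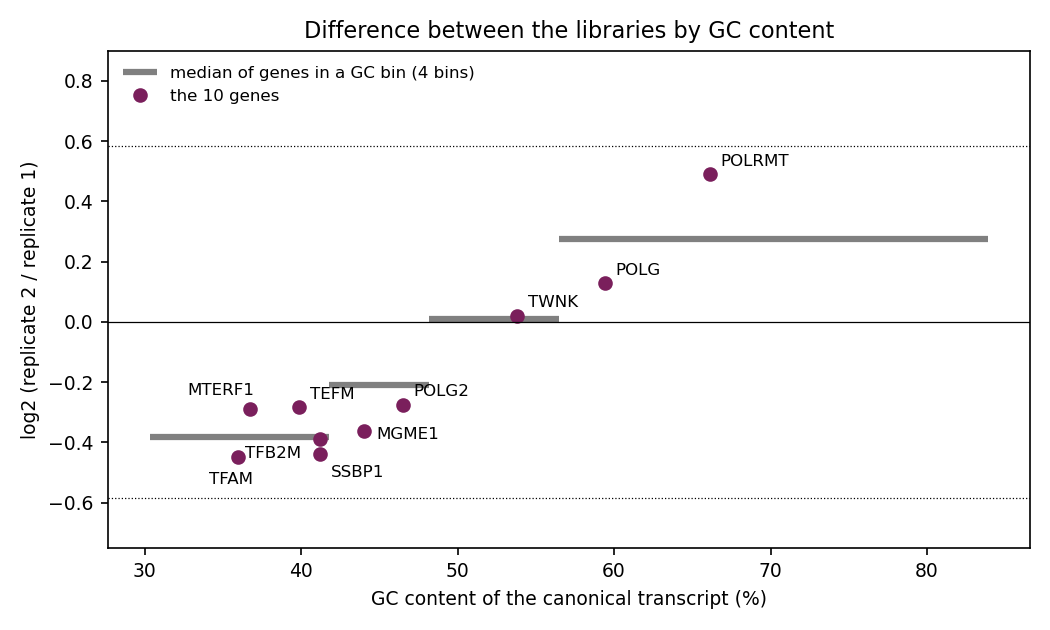
Difference between the libraries (log2 of replicate 2 over replicate 1, normalised counts plus 1) against the GC content of the canonical transcript. Points are the 10 genes, grey bars the median of all genes in each of 4 GC bins drawn over its range, and dotted lines mark 1.5-fold. The 3 genes above 0 are those with more than 50% GC, and no point lies beyond a dotted line.

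The gene totals were then resolved into transcripts. Of the 89 transcripts 57 had counts in both libraries, 14 in a single library and 18 in neither, and 33 held on average 5% or more of their gene. Across all 10 genes 83.7% ± 0.872 of the normalised counts lay on protein-coding transcripts, and 71.3% ± 3.63 on transcripts with the same coding sequence as the canonical transcript. Transcripts annotated as targets of nonsense-mediated decay held 5.67% ± 0.614 and transcripts with a retained intron 4.73% ± 0.111. All 10 canonical transcripts carry another version number in GENCODE v44 than in the deposited tables. Their lengths and exons may therefore differ from the models used for counting. The intervals given with shares are exact Clopper-Pearson 95% intervals, which cover counting error only and not the assignment of reads to transcripts.

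**Figure D3:**
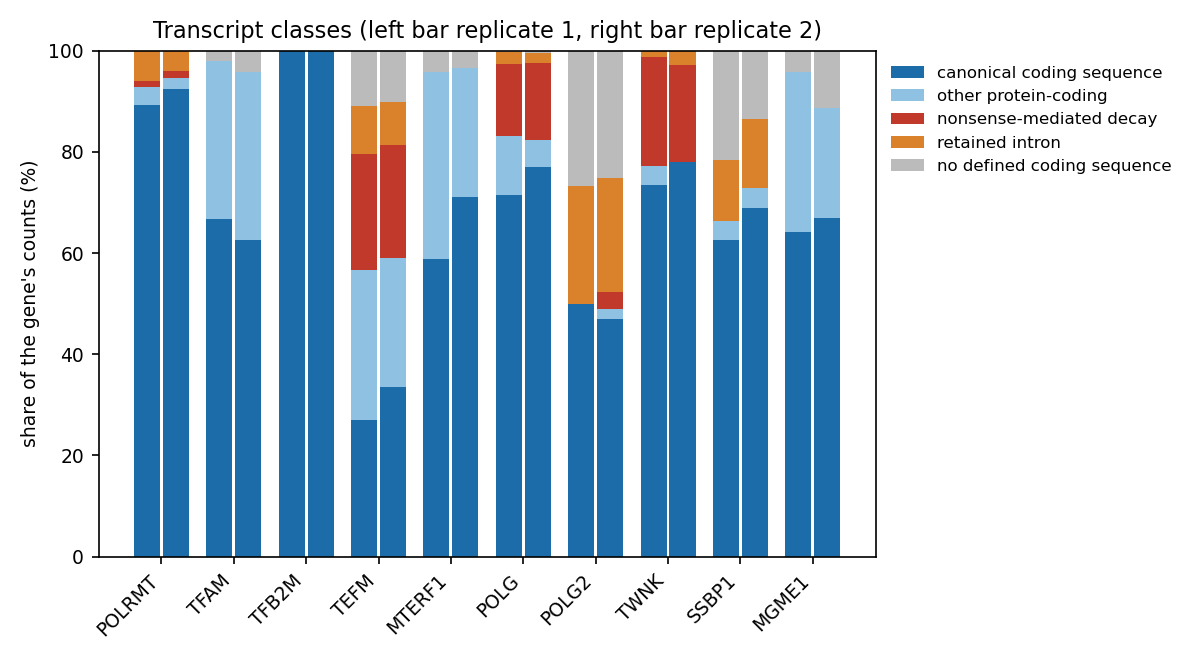
Share of each gene's normalised counts (%) by class of transcript, with replicate 1 as the left and replicate 2 as the right bar of each gene. The canonical coding sequence fills the whole bar of TFB2M, which has a single listed transcript. It fills 89.4% and 92.5% of the bars of POLRMT, but only 27.0% and 33.4% for TEFM and 49.9% and 47.0% for POLG2.

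Among the transcription genes POLRMT was dominated by the canonical form. POLRMT-202, which encodes the full polymerase of 1230 residues, held 89.4% of the gene in replicate 1 (interval 87.8 to 90.8) and 92.5% in replicate 2 (91.4 to 93.5). With counts divided by length its shares were 66.4% and 75.8%. TFB2M had a single listed transcript, TFB2M-201, with 396 residues, so its share of 100% follows from the annotation. For TFAM the canonical TFAM-204 held 66.8% (65.1 to 68.4) and 62.7% (60.8 to 64.5). The form without exon 5, TFAM-201, held 22.2% (20.8 to 23.7) and 25.4% (23.7 to 27.1). A further form, TFAM-203, whose model is annotated as incomplete and does not include exon 7, held 8.96% and 7.85%. Because TFAM-204 has an exon 7 of 4293 nt, the picture was different per length: TFAM-201, of 973 nt, then held 44.4% and 48.3% of the gene, TFAM-204 25.8% and 23.1%, and TFAM-203 26.3% and 21.9%. TFAM-201 was thus first in both libraries, whereas the order of the other two differed between them.

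TEFM was the most divided of the transcription genes. In replicate 1 its highest share belonged to TEFM-204, with 29.6% (24.5 to 34.8) against 27.0% (22.2 to 32.2) for the canonical TEFM-205. In replicate 2 TEFM-205 led with 33.4% (28.1 to 39.1) against 25.6% (20.9 to 31.1). The intervals of these transcripts overlapped in both libraries. Only 3 of the 1257 stretches of 50 nt in TEFM-205 occur in no other TEFM transcript, against 853 of 2060 in TEFM-204. Few reads could therefore set TEFM-205 apart. TEFM-204 reads through from exon 3 to exon 4, as its last exon spans chr17:30898986-30900562, and it encodes 226 instead of 360 residues. TEFM-201, the decay-annotated form with the shortened exon 3 printed above, held a steady 22.9% (18.4 to 27.9) and 22.4% (17.8 to 27.6). TEFM-203, without a defined coding sequence, held 10.8% and 10.1%, and TEFM-202, with a retained intron, 9.59% and 8.40%.

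MTERF1-201, the canonical form with 399 residues, held 58.7% (51.0 to 66.7) and 71.1% (63.4 to 78.4) of its gene. MTERF1-203 lacks exon 2, which holds 29 coding nt, and its annotated coding sequence starts later, so that 20 codons are missing. It held 21.5% (15.6 to 28.9) and 21.3% (15.1 to 28.8). MTERF1-202 held 12.6% (7.76 to 18.5) in replicate 1 and was at 0 in replicate 2, where a count of 0 allows a share of up to 2%. As only 15 of the 1590 stretches of 50 nt in MTERF1-202 occur in no other MTERF1 transcript, few reads could set it apart.

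In the replication group the largest difference in shares between the libraries concerned POLG. POLG-201 had 51.7% (49.8 to 53.6) in replicate 1 and 33.1% (31.5 to 34.6) in replicate 2, while POLG-202 had 19.7% (18.2 to 21.2) and 43.96% (42.3 to 45.6), so that the leading transcript was a different one in each library. These transcripts encode the same protein of 1239 residues and differ only in the ends of exon 1, which spans chr15:89334673-89334824 in POLG-201 and chr15:89334685-89334861 in POLG-202. Of the stretches of 50 nt only 60 of 4413 in POLG-201 and 85 of 4438 in POLG-202 are not shared between them. Summed over its coding sequence, the canonical protein of POLG held 71.4% and 77.1%, or 74.2% ± 3.97. POLG-222 held 11.7% and 5.32%, and its model, which is annotated as incomplete, does not include exons 1 to 3 and gives 909 residues. The decay-annotated POLG-213 held 3.997% and 9.23%, and POLG-221 of the same class, also an incomplete model, 5.78% and 4.96%.

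POLG2 had the highest share of counts outside protein-coding transcripts, 50.6% ± 0.630. The canonical POLG2-201, with 485 residues, held 49.9% (44.2 to 55.5) and 47.0% (41.0 to 52.7). POLG2-210, a transcript with a retained intron, held 23.3% (18.6 to 28.2) and 22.6% (17.9 to 27.7). A further 4 transcripts without a defined coding sequence (POLG2-202, POLG2-205, POLG2-206 and POLG2-208) had mean shares between 5.58% and 7.37%.

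TWNK was led by TWNK-201, which encodes the helicase Twinkle of 684 residues, with 73.5% (70.9 to 76.1) and 78.1% (75.8 to 80.3). TWNK-202, the Twinky form of 582 residues, was at 0 in both libraries, which allows shares of up to 0.259% and 0.223%. The extended exon 4 printed above is also part of TWNK-209, an incomplete model, which held 21.5% (19.2 to 24.0) and 17.8% (15.8 to 19.9). Of the 3616 stretches of 50 nt in TWNK-202 only 7 occur in no other TWNK transcript, so the division between these forms rests on few reads.

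SSBP1-211 led its gene with 37.0% (35.4 to 38.7) and 43.5% (41.6 to 45.3). The canonical SSBP1-201 encodes the same 148 residues and held 19.8% (18.5 to 21.3) and 14.1% (12.8 to 15.4). Together with other transcripts of this coding sequence they reached 65.7% ± 4.55. All 628 stretches of 50 nt in SSBP1-201 also occur in other SSBP1 transcripts, so no such stretch sets SSBP1-201 apart. SSBP1-208, without a defined coding sequence, held 21.7% (20.3 to 23.1) and 13.5% (12.3 to 14.9), and SSBP1-212, with a retained intron, 7.25% and 7.75%. MGME1-203, the canonical form with 344 residues, held 64.1% (61.3 to 66.9) and 67.0% (64.0 to 69.8). MGME1-201, the form that lacks exons 3 and 4 and encodes 252 residues, held 29.8% (27.2 to 32.5) and 21.8% (19.4 to 24.4). Only 48 of the 1732 stretches of 50 nt in MGME1-201 occur in no other MGME1 transcript. MGME1-205, without a defined coding sequence, held 4.24% (3.16 to 5.54) and 11.3% (9.39 to 13.3).

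**Figure D4:**
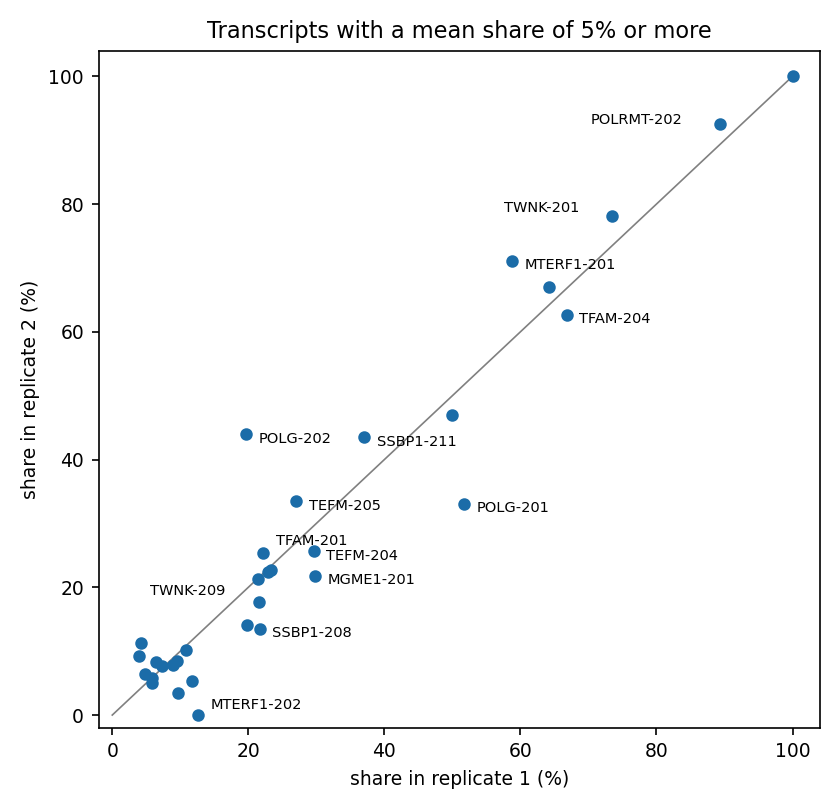
Share of the gene's normalised counts (%) in replicate 2 against replicate 1 for the 33 transcripts whose mean share reached 5%, with the grey line marking equal shares. POLG-201 (51.7% and 33.1%) and POLG-202 (19.7% and 43.96%) lie on opposite sides of the line and farther from it than other transcripts.

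Over the 9 genes with several transcripts, the leading transcript differed between the libraries for 2, POLG and TEFM. Over all genes with several transcripts it differed for 21.5% of 16735, and for 15.7% of the 11383 whose mean reached 100 normalised counts. When transcripts with the same coding sequence were summed, an alternative chosen after seeing the data, TEFM was the only gene with different leaders. When counts were divided by length, POLG was the only such gene.

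The transcripts of SSBP1 begin at different places, and RefSeq promoter windows of 300 bases (250 before and 50 after a start, build GRCh38.p14) were found for 9 of the 10 genes. SSBP1 had 3 such windows. Those at the starts of the canonical and of the leading transcript are shown because these differ, and the remaining one, with its start at position 141738321, is not shown because no listed SSBP1 transcript starts within 10 bp of it. Capitals mark CCGGAAG, the core recognised by ETS factors such as GABPA. SSBP1-201 starts at position 141738358, in the window chr7:141738108-141738407 (plus strand). SSBP1-211 starts within 10 bp of position 141738607, in the window chr7:141738357-141738656 (plus strand).

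SSBP1, window of SSBP1-201: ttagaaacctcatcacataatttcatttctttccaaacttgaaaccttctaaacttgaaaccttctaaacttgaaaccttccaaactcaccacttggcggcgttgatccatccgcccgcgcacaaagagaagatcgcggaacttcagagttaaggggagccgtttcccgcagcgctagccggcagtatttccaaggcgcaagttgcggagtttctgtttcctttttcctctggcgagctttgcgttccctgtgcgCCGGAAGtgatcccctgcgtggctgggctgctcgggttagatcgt

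SSBP1, window of SSBP1-211: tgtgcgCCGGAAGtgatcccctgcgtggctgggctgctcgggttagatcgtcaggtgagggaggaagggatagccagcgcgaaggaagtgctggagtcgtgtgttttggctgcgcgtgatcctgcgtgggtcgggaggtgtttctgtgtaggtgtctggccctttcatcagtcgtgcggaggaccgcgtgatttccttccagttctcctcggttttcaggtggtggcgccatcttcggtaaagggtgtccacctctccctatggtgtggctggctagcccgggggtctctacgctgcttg

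The printed windows overlap, and the single match is the same one in both. Searched on both strands, CCGGAAG was present in windows of 5 of the 9 genes (MTERF1, POLG2, POLRMT, SSBP1 and TEFM) and in 10.3% of all 35116 windows. GCGCATGC, a core of the sites bound by NRF1, was present for POLRMT and TFB2M, 2 of the 9 genes, and in 3.05% of all windows. No match of one motif overlapped a match of the other in the windows of these genes. A match describes letters only and was not measured as binding.

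Several of the genes lie so close to others that reads may be shared, and the strand setting used for counting is not given in the sources used here. TWNK, by its annotated span, overlaps MRPL43, a gene of the mitochondrial ribosome on the opposite strand, by 149 bp. TWNK-201 itself starts at position 100987543, 28 bp from the MRPL43 start at 100987515, and does not overlap it. TWNK-205, which starts further upstream, was at 0 in both libraries. MRPL43 had 1385 and 1371 normalised counts, nearly level between the libraries, as TWNK was. The annotated span of POLG overlaps FANCI, a gene of the Fanconi anaemia DNA repair pathway on the opposite strand, by 12064 bp. POLG-201 and POLG-202 reach only to position 89316320 and FANCI ends at 89317261, so these 2 transcripts overlap it by less. FANCI had 3840 and 3334 normalised counts. MGME1 starts 38 bp from SNX5, an endosomal sorting gene with 3944 and 3148 normalised counts. SSBP1 starts 12 bp from the antisense RNA WEE2-AS1 (121 and 75.1) and, by its annotated span, overlaps it by 13 bp. TFB2M starts 183 bp from CNST (447 and 360) and TEFM 106 bp from ADAP2 (589 and 602). The remaining neighbours with values (POLG-DT, OVOL2, MIR6766, ATP5MFP4, TAS2R3, TAS2R4, TAS2R6P and the non-coding ENSG00000275185, which overlaps TEFM by 542 bp) had at most 62.4 normalised counts in either library. Processed copies held little: POLRMTP1 had 71.1 and 107 normalised counts, TFAMP1 6.37 and 5.56, MTERF1P1 0 and 3.71, and TFAMP2 was at 0. The division of reads between these copies and their parent genes is uncertain.

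The wider machinery of mitochondrial DNA was present as well. All 43 of 43 further genes for its maintenance and expression had 1 normalised count or more in both libraries, as did 26370 of the 59026 genes summed. The 43 genes had a median per-length value of 14.6 and a range from 1.35 (TYMP, thymidine phosphorylase) to 291 (PHB2, a prohibitin). The medians of the groups were 61.9 for 6 nucleoid-associated genes, 25.03 for 13 genes of replication and repair, 15.6 for 12 genes of nucleotide supply and maintenance, 9.28 for 5 genes of transcription and 8.53 for 7 nuclear regulators. In the transcription group TFB1M, the rRNA methyltransferase related to TFB2M, had a per-length value of 16.3 ± 0.259. MTERF2, MTERF3 and MTERF4, of the same family as MTERF1, had 6.35 ± 0.247, 9.28 ± 0.232 and 9.93 ± 1.67, so that each exceeded MTERF1 in both libraries. Among the replication and repair genes the highest was LIG3, the mitochondrial DNA ligase, with 67.0 ± 6.89.

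Of these 43 genes 1 differed by more than 1.5-fold between the libraries, against 24.4% of all genes and 7.59% of the deeper ones. This was GABPA, an ETS factor and a regulator of nuclear genes for mitochondrial proteins, with 1412 and 851 normalised counts in replicates 1 and 2 (log2 difference -0.73). The other regulators NRF1 (585 and 619), PPARGC1A (315 and 289) and ESRRA (593 and 761) stayed below this fold.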

How the data were processed

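RNA of 2 libraries of HEK293 Flp-In T-Rex cells was analysed (1 group, replicates 1 and 2). Per the file headers, the authors deposited an estimated count per transcript made with RSEM, and a normalised signal (EB-Seq-Normalised). The deposited signal equalled the estimated count divided by 0.945 in replicate 1 and 1.08 in replicate 2. The submitters' processing notes name FastQC, STAR 2.7.0d, RSEM 1.3.3 and R 3.6.3, and the study used the GRCh38 genome. RSEM divides reads that match several transcripts between them, so shares of similar transcripts carry more error than counting alone. The tables of METTL8 transcripts only were not used.

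Identifiers without version were matched to GENCODE v44 (202217 of 206696 transcripts, 173547 of them with the same version), and transcripts were summed per gene in Python 3.11.15 with pandas 2.3.3, numpy 2.4.6 and scipy 1.17.1. Plots were drawn with matplotlib 3.10.9. Per-length values used no effective length. A pair of genes was called different when its order was shared by the libraries and its means differed by more than the sum of the SDs. A difference between libraries was called above 1.5-fold. The limit set by a count of 0 is 3 counts of the gene total. Alternatives were other lengths, protein-coding transcripts only, another total, another pseudocount, transcripts with unchanged versions, leaving out each library, and, added after seeing the data, transcripts summed by coding sequence and subtraction of the median of the GC bin.

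Named are all 10 genes, their canonical transcripts and those whose mean share reached 5%, and genes with values that overlap them or start within 1000 bp. From the wider list, genes could be named if among the 3 highest or 3 lowest of their group by per-length value, or in a group with fewer than 7 genes, and only some of these are named. TWNK-202, NRF1 and the processed copies fall outside this rule and were named after their values were seen. The genes and lists were chosen with earlier results of these data known. A further marker of the line is not reported here.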

Additional observations from a re-analysis of the deposited data

Results flagged for a closer look

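Counts outside every comparison above were found in the deposited tables. Of the listed transcripts 4479 had no match in GENCODE v44 and entered no sum per gene. They held 788418 estimated counts in replicate 1 (3.13% of the library) and 859242 in replicate 2 (3.17%), so transcripts of the 10 genes that the newer annotation dropped would be missing from the sums.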

How the results depend on the processing

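The per-length sum of the 10 genes, 331, became 188 with lengths reduced by 200 nt, 756 with protein-coding transcripts only and 706 when misc_RNA, ribozyme, snRNA, rRNA and mitochondrial transcripts were left out of the total. It was 302 to 360 without either library. The share with the canonical coding sequence, 71.3%, became 57.3% with counts divided by length, 85.2% over protein-coding transcripts only and 37.9% with transcripts of unchanged version only. The last setting leaves out all 10 canonical transcripts themselves, so the fall follows from the setting and says nothing about the share. The protein-coding share, 83.7%, became 75.1% with counts divided by length. Of 45 pairs 43 were called, also with reduced lengths, 39 with canonical lengths and 40 with protein-coding transcripts only. Log2 ratios changed sign with canonical lengths for POLRMT over TFAM (0.0017), TFAM over POLG (-0.33) and TEFM over POLG2 (0.29), and with protein-coding transcripts only for TFB2M over POLG2 (0.16) and TEFM over POLG2 (0.19). Of these only the last was called. The count of genes above 1.5-fold was 0 of 10 under every alternative tried for it, with the largest log2 difference 0.56 with counts per 1000000. A comparison of the libraries cannot be made without either library. No paired analysis was possible because the samples form 1 group. Depth limits MTERF1, TFB2M, TEFM and POLG2 most, the genes with the fewest counts of the 10.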
